A study of Mus musculus with 9 samples.

Results

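The 10 marker genes of astrocytes were followed in cultures of primary mouse microglia. They were taken as a list of cell type markers, Gfap, Aqp4, Slc1a2, Slc1a3, Aldh1l1, Gja1, Atp1b2, Sparcl1, Fgfr3, and S100b, and their Ensembl transcripts were summed to genes. The list holds 10 of 54119 genes, and 9 of the 10 passed the filter on low counts, together with 16229 genes tested in all. The gene that did not pass was S100b. The study asked what loss of the autism-related genes Chd8 or Tsc2 does to microglia, and it measured total RNA by RNA-seq in 9 libraries, 3 each with control, Chd8, and Tsc2 siRNA. The microglia came from whole brains of E18 C57BL/6J mice, were shaken off a layer of mixed glia, and were transfected with siRNA by lipofection. RNA was taken after 3 days. The study describes all 3 groups as stimulated with LPS, a bacterial cell wall component, and its methods do not count the RNA-seq among the experiments without LPS. The sample labels and the methods on RNA-seq name no LPS, and the length of the stimulation is not given alike throughout. Labels number the libraries of each group from 1 to 3.

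Astrocytes are glial cells that take up glutamate, buffer potassium, move water, and support the blood-brain barrier, and some members of the list serve these functions. Microglia are the macrophages of the brain and grow on top of astrocytes in mixed glial culture, from which shaking detaches them. Bulk RNA-seq reads the sum over all cells of a dish, so a smaller number of cells of one type and less RNA per cell cannot be told apart.

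Library totals lay between 16913005 and 33213477 estimated counts, at which 3 counts were 0.0903 to 0.177 CPM, that is, counts scaled to the library total. Chd8 was lower with Chd8 siRNA by 0.86 ± 0.28 on the log2 scale (SE), and its edgeR adjusted p was 1.00, or 0.00781 once the replicate number was a block. Tsc2 was lower with Tsc2 siRNA by 0.38 ± 0.15 (SE), with edgeR adjusted p-values of 1.00 and 0.219. Its log2 differences from the control of the same number were -0.73, -0.38, and -0.093 at numbers 1, 2, and 3, so the library labelled Tsc2 siRNA and numbered 3 was hardly lower in Tsc2 than its control. Libraries of one replicate number deviated together, and the 3 libraries numbered 3 stood apart for many genes named here.

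The astrocyte markers were low beside the microglial genes in every library. Levels are given between genes as TPM, a share of all transcripts, which allows for transcript length. The order of mean TPM over the 9 libraries was Sparcl1 (1.53, range 0.17 to 4.90), Aqp4 (1.40, 0 to 5.60), Aldh1l1 (1.32, 0.88 to 2.28), Slc1a3 (0.97, 0.25 to 2.19), Gfap (0.88, 0.21 to 3.18), Atp1b2 (0.69, 0.13 to 2.02), Gja1 (0.65, 0.19 to 1.39), Slc1a2 (0.36, 0.075 to 0.70), Fgfr3 (0.34, 0 to 1.78), and S100b (0.14, 0.023 to 0.29). The ranges of all neighbours in this order overlapped. Lyz2, the lysozyme of macrophages, reached a mean of 1461 TPM, the protease gene Ctss 604 TPM, and Fcer1g, which encodes an Fc receptor chain, 544 TPM. Csf1r, the receptor for the growth factor that microglia need, had 76.7 TPM, the integrin gene Itgam 56.6 TPM, and Aif1, which encodes Iba1, 49.1 TPM. The genes that mark resting microglia in the brain were at the level of the astrocyte markers or below it. Cx3cr1, the fractalkine receptor, had 1.30 TPM, the purine receptor gene P2ry12 0.41 TPM, and Tmem119 0.049 TPM, with 0 in its lowest library. The label of microglia thus rested in these data on genes shared with other macrophages.

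The summed TPM of the 10 markers made up 0.0727%, 0.0584%, and 0.0555% of the summed TPM of 20 microglial genes in the control, Chd8, and Tsc2 libraries numbered 1. At number 2 the values were 0.136%, 0.0969%, and 0.130%, and at number 3 they were 0.558%, 0.297%, and 0.226%. The libraries numbered 3 were above all others in each group. The mean ± SD over the 3 libraries was 0.256 ± 0.264% for control, 0.151 ± 0.128% for Chd8, and 0.137 ± 0.0855% for Tsc2 siRNA. Against the 6 genes Aif1, Cx3cr1, P2ry12, Tmem119, Itgam, and Csf1r alone the marker sum was 1.37% to 16.2%, with the same libraries highest. The sum was carried by different members in different libraries. Aldh1l1 held the largest part in all 3 libraries numbered 1, with 23.5% to 28.8%, and Aqp4 held 23.5% of it in the control and 26.1% in the Tsc2 library numbered 3.

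**Figure D1:**
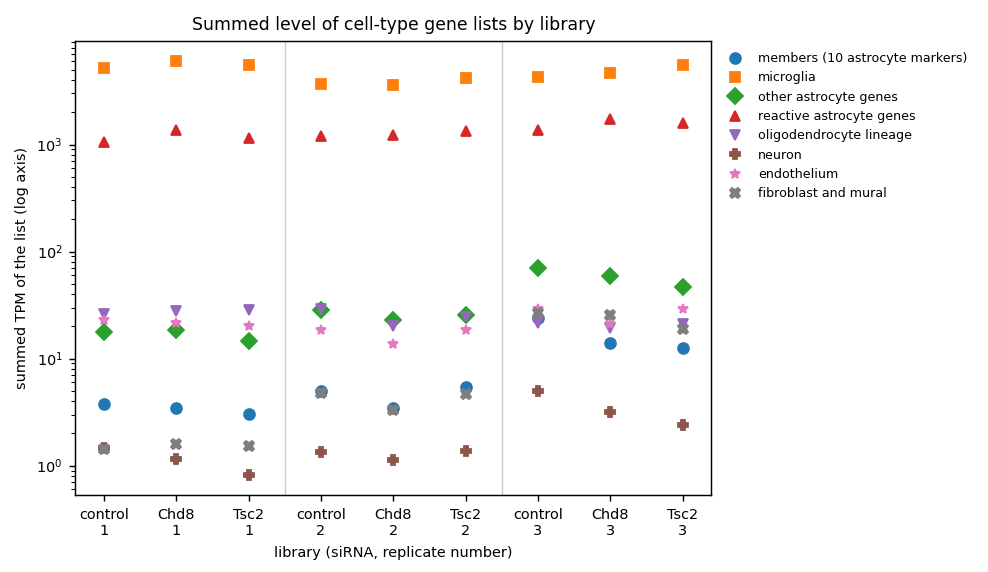
Summed TPM (log axis) of each gene list in the 9 libraries, ordered by replicate number with control, Chd8, and Tsc2 siRNA side by side. The 10 astrocyte markers lay between 3.04 and 23.9 TPM and the 20 microglial genes between 3602 and 5974 TPM. For the markers, the other astrocyte genes, the neuronal genes, and the fibroblast and mural genes, the libraries numbered 3 were above all others. The reactive astrocyte and endothelial lists also had their highest mean at number 3, with libraries that overlapped those of other numbers.

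Values within a gene are given below as CPM normalized by TMM, in the order control, Chd8, and Tsc2 siRNA. Positions are on GRCm38 in GENCODE M21. Gfap (chr11:102887336-102900912, minus strand) encodes the intermediate filament of astrocytes. It had 2.79, 1.41, and 1.41 CPM at number 1, 2.71, 1.34, and 2.61 CPM at number 2, and 15.3, 5.02, and 6.79 CPM at number 3. The control was the highest library at each number, and the 3 libraries numbered 3 were above the 6 others, so that the siRNA groups overlapped. Aqp4 (chr18:15389496-15410982, minus strand), the water channel of astrocyte endfeet, had 0 counts in all 3 libraries numbered 1. It had 6.10, 6.00, and 6.97 CPM at number 2 and 46.4, 7.16, and 18.6 CPM at number 3. Detection of Aqp4 thus followed the replicate number and not the siRNA, and at number 3 the control library was far above both knockdowns.

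The glutamate transporters take up glutamate from the synapse. Slc1a2 (chr2:102658659-102790784, plus strand), which encodes GLT-1, had 1.73, 1.77, and 0.897 CPM at number 1, 1.72, 1.66, and 3.06 CPM at number 2, and 5.58, 6.38, and 1.90 CPM at number 3. Here the Tsc2 library numbered 3 fell among the libraries of the other numbers. Slc1a3 (chr15:8634124-8710764, minus strand), which encodes GLAST, had 1.58, 2.41, and 1.84 CPM, then 3.32, 3.32, and 3.61 CPM, then 14.7, 11.5, and 9.66 CPM at numbers 1, 2, and 3. Libraries of one number lay close together for Slc1a3, and the numbers did not overlap. Aldh1l1 (chr6:90486427-90600203, plus strand), a folate enzyme used as a marker of the whole astrocyte lineage, had 3.43, 3.65, and 4.14 CPM at number 1, 6.53, 8.35, and 6.77 CPM at number 2, and 13.1, 10.3, and 5.45 CPM at number 3. Its Tsc2 library numbered 3 was below every library numbered 2.

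Gja1 (chr10:56377330-56402513, plus strand) encodes connexin 43, the main gap junction protein of astrocytes. It had 3.96, 3.05, and 2.26 CPM at number 1, 1.60, 1.47, and 2.86 CPM at number 2, and 6.61, 5.06, and 7.44 CPM at number 3, so that the libraries numbered 2 were the lowest on average. Atp1b2 (chr11:69599736-69605942, minus strand), a beta subunit of the sodium pump, had 2.79, 1.57, and 1.45 CPM, then 2.22, 0.637, and 2.66 CPM, then 9.27, 7.53, and 5.83 CPM. Its highest values were again those numbered 3. Only 61.6% of the Atp1b2 counts were on protein-coding transcripts, against 85.9% to 100% for the other members. Sparcl1 (chr5:104079111-104113733, minus strand), a secreted matrix protein that promotes synapses, had 3.43, 2.28, and 1.67 CPM, then 4.68, 1.15, and 4.01 CPM, then 17.5, 15.4, and 5.15 CPM. Its Tsc2 library numbered 3 was close to the control library numbered 2.

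Fgfr3 (chr5:33721674-33737068, plus strand), a receptor for fibroblast growth factors, had 0.0754, 0, and 0.0854 CPM at number 1, 0.616, 0.510, and 0.802 CPM at number 2, and 5.88, 2.06, and 1.49 CPM at number 3. S100b (chr10:76253853-76261159, plus strand), a calcium-binding protein of astrocytes, stayed close to the floor, with 0.264, 0.268, and 0.427 CPM at number 1, 0.369, 1.08, and 0.903 CPM at number 2, and 0.172, 0.411, and 0.0585 CPM at number 3. It was the one member whose lowest library was numbered 3. Control was the highest of the 9 libraries for 7 of the 10 members, each time the control library numbered 3. Aqp4, Sparcl1, and S100b overlap genes on the other strand, the antisense genes AC133525.2 and Gm26703 and the protein-coding gene Dip2a, with 292, 230, and 2010 counts over all libraries. The kit was stranded, but whether strand was used in the quantification is not given in the sources used here.

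**Figure D2:**
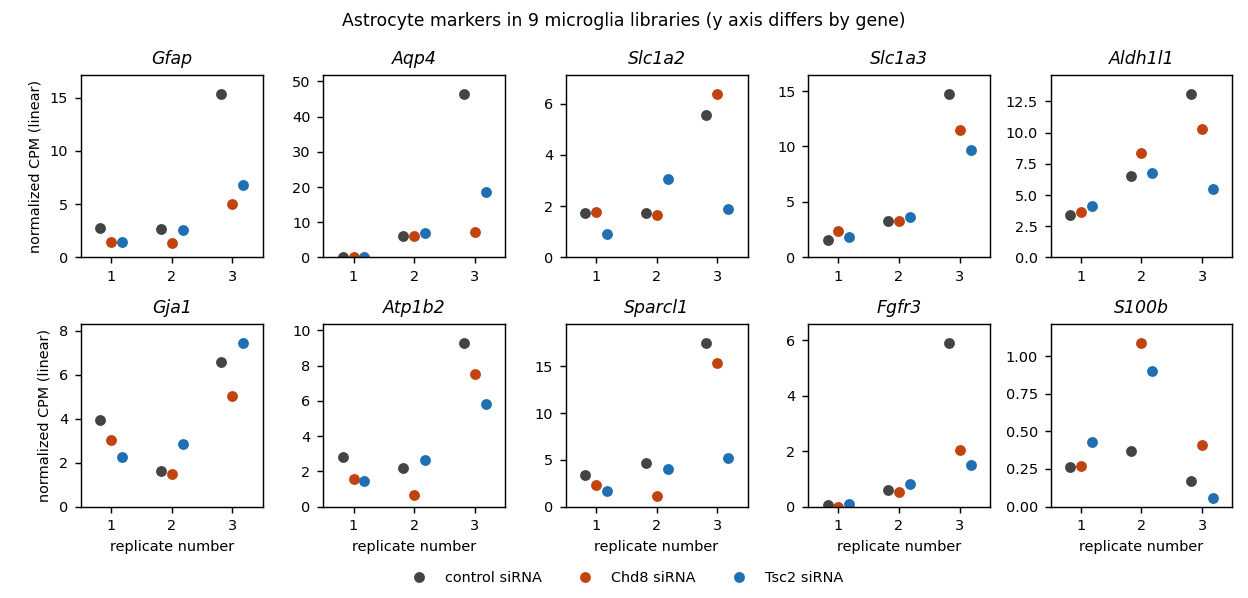
Normalized CPM (linear axis, scaled for each gene) of the 10 members against replicate number, 1 point per library, coloured by siRNA. All 3 points numbered 3 lie above the 6 others for 7 members; Aqp4 is at 0 in the 3 libraries numbered 1, and S100b has no such pattern.

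No astrocyte marker passed the test against control siRNA in either knockdown. No gene at all was called by edgeR at an adjusted p of 0.05 and a 1.5-fold change (Benjamini-Hochberg over 16229 genes) in the Chd8 comparison, the Tsc2 comparison, or between the knockdowns, which is 0% of the genes tested in each. At an unadjusted p of 0.05 there were 622, 420, and 503 genes and no member. The lowest adjusted p of a member was 1.00 in all 3. With the replicate number as a block edgeR called 86 genes (0.53%) for Chd8, 63 (0.388%) for Tsc2, and 36 (0.222%) between the knockdowns, and still 0 members; 2, 2, and 0 members had an unadjusted p under 0.05, as had 2091, 1737, and 1746 of all genes tested. DESeq2 without the block called 9, 5, and 5 genes and 0 members.

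The fitted values were negative for 8 of the 9 tested members in each knockdown against the same 3 control libraries, so the comparisons are not independent of each other. The median log2 fold change of these 9 was -0.44 with Chd8 and -0.63 with Tsc2 siRNA, where all genes tested had -0.02 in both. Without the block the direction turned when the control library numbered 3 was left out, which leaves the high knockdown libraries of that number with no control of their own: 1 of 10 members was negative in each knockdown, Gfap with Chd8 and Sparcl1 with Tsc2 siRNA, and the medians were 0.61 and 0.47. With the block and without that library, 6 and 5 of 10 were negative, with medians of -0.32 and -0.0067. Without all libraries numbered 3, the blocked fit had 6 negative members and a median of -0.14 for Chd8, and 3 and 0.12 for Tsc2. Leaving out the Tsc2 library numbered 3 alone, in which Tsc2 was hardly lower, leaves the high control library of that number with no Tsc2 library beside it. Without the block, 9 of 10 members were then negative for Tsc2 with a median of -1.24. In the blocked fit 5 of 10 were, with a median of 0.0063. Gfap had a log2 fold change of -1.42 ± 0.84 (SE) with Chd8 siRNA, and -1.24 ± 0.29 with the block, where the edgeR adjusted p was 0.0559. Aqp4 had -2.01 ± 1.90 with Chd8 siRNA and -1.51 ± 0.45 with the block, where its edgeR adjusted p was 0.150. The Aqp4 value depended on which libraries entered the fit. In the blocked fit it was called without the control library numbered 2, at -2.38 ± 0.36 (edgeR adjusted p = 0.0260), and without all libraries numbered 2, at -2.68 ± 0.32 (edgeR adjusted p = 0.0312), and it was -0.0088 ± 0.53 without all libraries numbered 3. Gfap kept its sign there, with -0.98 ± 0.48 and an edgeR adjusted p of 0.562.

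The other members had smaller values with Chd8 siRNA or larger errors. With the block, Atp1b2 had -0.76 ± 0.37 and Sparcl1 -0.66 ± 0.39, Fgfr3 had -1.20 ± 0.66, Gja1 -0.32 ± 0.31, and the glutamate transporters and Aldh1l1 lay between -0.0058 and 0.09. With Tsc2 siRNA and the block, Sparcl1 had -0.95 ± 0.41 at an edgeR adjusted p of 0.413, and Gfap -0.77 ± 0.28 at an edgeR adjusted p of 0.316. Gja1 had 0.07 ± 0.31. S100b entered the fit of all 9 libraries only without the filter on low counts and had log2 fold changes of 1.11 ± 1.03 with Chd8 and 0.76 ± 1.03 with Tsc2 siRNA, opposite in sign to most members.

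**Figure D3:**
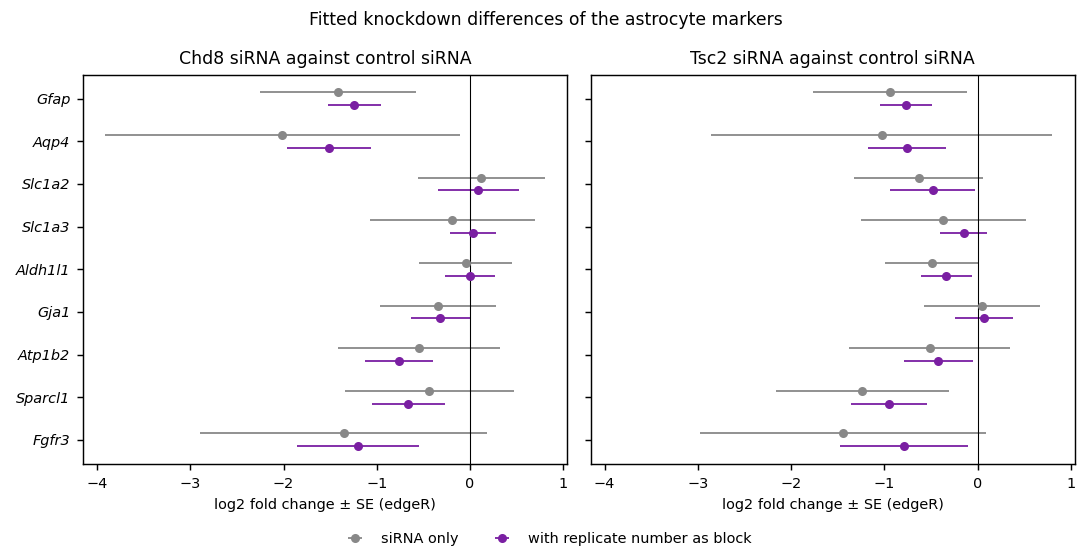
Log2 fold change (x axis) with its SE for the 9 members tested, against control siRNA, from the edgeR fit with the siRNA alone (grey) and with the replicate number as a block (purple). Most points lie left of 0 and the bars are shorter with the block, as for Gfap in the Chd8 comparison (0.84 against 0.29).

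Within a replicate number the markers moved unevenly. With Chd8 siRNA, 5 of the 10 members were below their control at number 1, 8 at number 2 (6 with RLE normalization), and 8 at number 3. Gfap, Gja1, Atp1b2, Sparcl1, and Fgfr3 were below it at all 3 numbers, so 5 of 10, where 18.3% of all genes tested were. For Gfap the log2 differences were -0.95, -0.97, and -1.59, and for Gja1 they were smaller, at -0.37, -0.12, and -0.38. Atp1b2 and Sparcl1 differed most at number 2, by -1.67 and -1.95, and Fgfr3 rested on a few counts at number 1. Slc1a2 and Slc1a3 differed from their control by at most 0.58 on the log2 scale at every number.

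With Tsc2 siRNA, 5 members were below control at number 1, 2 at number 2, and 9 at number 3. Only Gfap and Sparcl1 were below it at all 3 numbers, and 2 of 10 is near the 16.4% of all genes tested. The median over the 10 members was -0.39 at number 1, 0.22 at number 2, and -1.21 at number 3, where Tsc2 itself differed least from control. Between the knockdowns 1 member, Gfap, was lower with Chd8 at all 3 numbers, where 15.9% of all genes tested were, and by only 0.0024 at number 1.

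**Figure D4:**
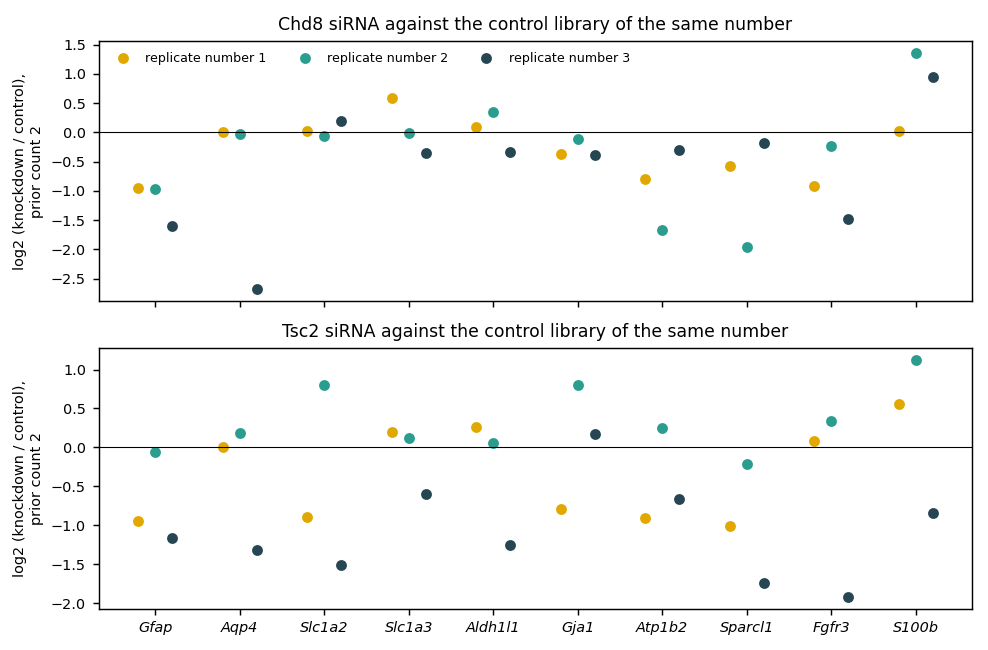
Log2 ratio of each knockdown library to the control library of the same replicate number (y axis, prior count 2) for the 10 members (x axis), 1 point per number. Gfap is below 0 at all 3 numbers for both siRNAs, whereas the members spread on both sides of 0 for Tsc2 at number 2, with 2 of 10 below it.

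The 9 tested members were higher in the libraries numbered 3 than in those numbered 1, whatever the siRNA. This comparison was made after the values had been seen. In the edgeR fit with siRNA and replicate number, 9 of the 10 members differed between the numbers at an adjusted p of 0.05 and were higher by 1.5-fold or more at number 3 than at number 1, where 8.05% of all genes tested were. Tested between numbers 3 and 1 alone, the same 9 members were called, against 8.15% of genes. Without the filter on low counts the share was 9 of 10, S100b included in the test, against 4.91% of genes. All 3 libraries numbered 3 were above the 6 others for 7 members, which held for 5.37% of all genes tested. Slc1a3 was higher by 2.61 ± 0.26 on the log2 scale (SE, edgeR adjusted p = 2.56e-06 for numbers 3 and 1 alone), Sparcl1 by 2.33 ± 0.40, Gfap by 2.19 ± 0.28, and Atp1b2 by 2.00 ± 0.36. Slc1a2 (1.60 ± 0.44), Aldh1l1 (1.31 ± 0.27), and Gja1 (1.01 ± 0.31) differed less. Fgfr3 had 238 counts in the libraries numbered 3 and 4 in those numbered 1, a ratio of 58.1 after scaling, with an exact 95% interval from 22.4 to 215 that covers counting error only. Without the control library numbered 3, which held most of these counts, the ratio was 34.5, with an interval from 13.1 to 129. Aqp4 was at least 211-fold higher, taking 3 counts per library as the floor at number 1, and at least 113-fold without the control library numbered 3. S100b had -0.77 ± 1.05 without the filter on low counts, at an edgeR adjusted p of 0.891 for numbers 3 and 1 alone.

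By the same rule, other astrocyte genes were higher at number 3. Of 25 such genes 19 were tested, and 13 were higher and 0 lower at number 3 than at number 1, with a median log2 difference of 2.57, where the members tested had 2.19 and all genes 0.0047. Among the 5 with the highest mean TPM, Fabp7, a fatty acid binding protein of radial glia and immature astrocytes, differed by 5.20 ± 0.42, F3, which encodes tissue factor, by 2.94 ± 0.18, the lipid phosphatase gene Plpp3 by 2.29 ± 0.15, and Cpe, a peptide processing enzyme, by 2.00 ± 0.17. Glul, the glutamine synthetase gene, had the highest level of the list, 9.20 TPM, and a difference of 0.0094 ± 0.12. The markers of mature astrocytes Ntsr2, Slc7a10, and Gjb6 had 0.015, 0.0060, and 0.0011 TPM. Plpp3 was also called lower with Tsc2 siRNA in the blocked fit (-0.92 ± 0.15, edgeR adjusted p = 0.0104), the one astrocyte gene of the lists called in a knockdown.

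Genes of reactive astrocytes did not move in one direction. Their summed TPM, 1062 to 1741, was carried by Cxcl10 (945 TPM on average), Vim (199 TPM), and Cd44 (118 TPM), which macrophages also express. At number 3, S1pr3 and Osmr were higher than at number 1, and Lcn2 and Cp were lower, of 10 tested, with Timp1 also higher when those numbers were tested alone. S1pr3 differed by 3.52 ± 0.38 and Osmr by 1.88 ± 0.33, and Lcn2 by -1.46 ± 0.13. Serpina3n, Hspb1, and Aspg had 0.32, 0.17, and 0.014 TPM. S1pr3, Osmr, Timp1, and the genes named for their call in the next lists were chosen after their values were seen.

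Genes of other cell types were called between the numbers as well, against 8.05% of all genes tested that were higher and 5.51% that were lower at number 3 than at number 1. Of 6 fibroblast and mural genes tested, 5 were higher at number 3 than at number 1 by the rule used for the members (Acta2, Col1a1, Col1a2, Col3a1, and Pdgfrb), and 3 when those numbers were tested alone (Acta2, Col1a1, and Pdgfrb). Col3a1 differed by 0.76 ± 0.63 between numbers 3 and 1 and by 3.72 ± 0.79 between numbers 3 and 2. Acta2, smooth muscle actin, differed by 5.91 ± 0.30 and Col1a1 by 3.46 ± 0.26, and the list summed to 1.42 to 1.59 TPM at number 1, 3.32 to 4.82 TPM at number 2, and 18.8 to 26.9 TPM at number 3, with Kcnj8 at 0 to 0.0086 TPM over the 9 libraries. Col1a1 was also called lower with Chd8 siRNA in the blocked fit (-1.31 ± 0.25, edgeR adjusted p = 0.0216). Of 9 neuronal genes tested Map2 and Stmn2 were higher and none was lower, with list sums of 0.821 to 1.47 TPM at number 1 and 2.42 to 4.96 TPM at number 3. Among the oligodendrocyte genes Olig1 was higher and Mbp lower by both tests, with Sox10 higher only over all 3 numbers, and Cnp had 18.3 TPM. Of 5 endothelial genes tested Pecam1 was lower, and Flt1 and Kdr, at 15.8 and 3.74 TPM, were not called. Of 19 microglial genes tested none was higher and Itgam alone was lower, by 1.08 ± 0.12, near the share of all genes, with a median of -0.21. The part of these other cells in the astrocyte values was not tested.

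**Figure D5:**
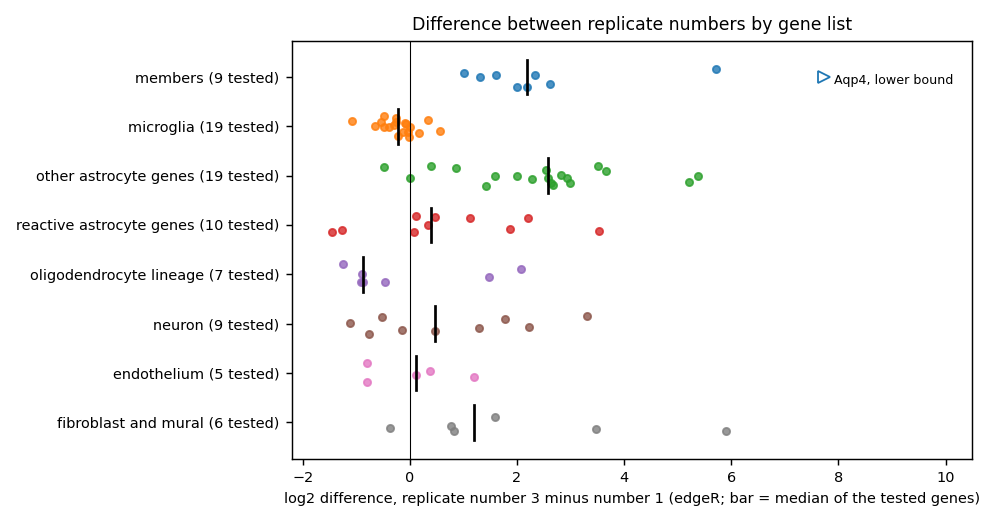
Log2 difference between the libraries numbered 3 and those numbered 1 (x axis) for each tested gene of the lists, with the median as a bar and Aqp4 drawn at its lower bound. The 9 members and most other astrocyte genes lie right of 0, with medians of 2.19 and 2.57, while the microglial genes lie around -0.21.

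Likeness between the members was measured by the root mean square (RMS) difference of their log2 CPM, each centred on its own mean, over the 9 libraries, where a smaller value is closer. Slc1a3 was nearest to the mean of the other tested members (0.38), followed by Gfap (0.54) and Sparcl1 (0.68), and Gja1 (1.02) and Aqp4 (2.74) were farthest. Among all other tested genes the 10 nearest to the mean of the members were Arhgef17, Slc4a4, Sall2, Cobll1, Timp3, Cryab, Fhl1, Cnn3, Cxcl1, and Gnao1, with RMS differences from 0.257 to 0.331, where the median gene had 1.24. Slc4a4, the sodium bicarbonate cotransporter, is itself on the list of other astrocyte genes. Cxcl1, a neutrophil chemokine, was the most abundant of them, with 72.1, 45.0, and 34.4 CPM at number 1, 174, 108, and 171 CPM at number 2, and 557, 252, and 374 CPM at number 3.

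Sequence upstream of the start site is shown for members at both ends of this pattern, because most members moved together. RefSeq promoter windows on GRCm38.p6 were found for 7 members, and the 250 bases before the start are printed for Slc1a3, which was nearest to the mean of the members, Gfap and Aldh1l1, which were also higher at number 3, and S100b, which was not. Aqp4, Atp1b2, and Sparcl1 had no window. Capitals mark matches on either strand to TTGGCA, a single arm of the nuclear factor I site, to its full palindrome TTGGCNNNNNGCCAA, to the STAT site TTCNNNGAA, to the TATA box TATAAA, to the nuclear factor Y site CCAAT, or to the Sp1 site GGGCGG.
Slc1a3, chr15:8710808-8711057, minus strand: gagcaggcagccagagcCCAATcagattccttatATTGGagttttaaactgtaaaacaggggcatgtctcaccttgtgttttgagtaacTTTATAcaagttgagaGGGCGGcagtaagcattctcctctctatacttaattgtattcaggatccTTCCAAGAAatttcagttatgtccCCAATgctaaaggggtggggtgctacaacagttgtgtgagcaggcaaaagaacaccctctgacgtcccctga
Gfap, chr11:102897201-102897450, minus strand: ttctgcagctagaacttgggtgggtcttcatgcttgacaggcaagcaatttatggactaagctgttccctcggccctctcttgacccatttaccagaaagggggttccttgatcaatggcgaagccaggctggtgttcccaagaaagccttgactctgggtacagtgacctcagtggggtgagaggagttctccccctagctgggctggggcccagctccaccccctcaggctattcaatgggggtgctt
Aldh1l1, chr6:90550543-90550792, plus strand: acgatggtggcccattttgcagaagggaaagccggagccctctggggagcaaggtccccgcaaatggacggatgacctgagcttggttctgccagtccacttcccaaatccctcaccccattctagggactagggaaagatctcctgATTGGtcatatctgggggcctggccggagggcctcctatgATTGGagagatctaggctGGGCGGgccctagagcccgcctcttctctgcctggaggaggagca
S100b, chr10:76253586-76253835, plus strand: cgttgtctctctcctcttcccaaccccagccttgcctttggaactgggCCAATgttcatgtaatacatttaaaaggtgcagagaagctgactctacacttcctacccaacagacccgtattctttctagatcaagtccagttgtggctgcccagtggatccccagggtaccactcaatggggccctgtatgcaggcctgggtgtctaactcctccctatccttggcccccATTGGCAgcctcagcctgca
Nuclear factor I and STAT3 are known regulators of astrocyte genes. Over the 8 windows of the 7 members, 2 of them from Fgfr3, the single arm TTGGCA was found in 1 window, that of S100b, where it overlaps a nuclear factor Y match, and in 12.3% of all 32851 windows. TTCNNNGAA was found in 1 window, that of Slc1a3, and in 7.02% of all windows, and TATAAA likewise in 1 window, against 12.4%. The nuclear factor Y and Sp1 sites were each found in 4 of 8 windows, against 33.8% and 32.7% of all windows, and the palindrome in none, against 0.0365%. The Gfap, Slc1a2, and Gja1 windows held no match. The transcript with most counts started 69 bases downstream of the RefSeq start for Gfap, 43 for Slc1a3, 12 for Aldh1l1, and 17 for S100b, but 47779 bases upstream of it for Slc1a2.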

How the data were processed

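The authors quantified the RNA-seq reads of 9 libraries with salmon 0.14.1 against mm10 and deposited, for every library, the estimated counts of each transcript, neither normalized nor pooled; the annotation release is not given in the sources used here. The estimated counts were matched to GENCODE M21 (139852 of 140948 transcripts, with 0.27% of counts in the 1096 unmatched), summed to genes, and rounded. TPM were computed from the estimated counts and the annotated transcript lengths. Floors of 3 counts cover counting error only.

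Genes were tested with edgeR 4.0.16 in R 4.3.3 (quasi-likelihood test, filterByExpr, TMM, all 9 libraries, siRNA as the factor) with Benjamini-Hochberg adjustment over all genes tested, and called at an adjusted p of 0.05 and a 1.5-fold change. DESeq2 1.42.0 was an alternative, beside RLE normalization, no filter, 2 groups only, protein-coding transcripts only, and each library left out. The difference between replicate numbers was tested over all 3 numbers in the same edgeR fit with the replicate number added, and for numbers 3 and 1 alone. Log2 CPM used a prior count of 2. The fits were tested on simulated data.

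Replicate numbers come from the titles, and each replicate is described as a culture from a separate brain; whether one number marks one culture is not stated, and p-values measure the spread between these libraries. Deviations from the group means correlated at 0.244 to 0.522 in all 9 pairs of the same number and at -0.38 to 0.04 in the others, so the numbers were taken to pair the libraries, and blocked values are given. All 10 members are named, with the best known and the highest and lowest genes of each list by mean TPM, the genes called, and the 10 genes most like the members. The members and lists were chosen with earlier results of these data known. A single gene on the cell type lists was left out of the text and is not reported here.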

Additional observations from a re-analysis of the deposited data

How the results depend on the processing

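No member was called under RLE normalization, no filter on low counts, DESeq2, 2 groups only, or protein-coding transcripts only, with 0 members also when each library was left out without the block. The counts of all genes depended on the fit. Without the block 0 genes were called in each comparison, and without the filter 2 and 1 for Chd8 and Tsc2 against control. DESeq2 called 9, 5, and 5 for Chd8, Tsc2, and Chd8 against Tsc2. The replicate block gave 86, 63, and 36, at most 0.53% of the genes tested. With shares this small, 0 members called is near the share of all genes. Dropping single libraries from the blocked fit gave ranges of 20 to 81, 7 to 131, and 4 to 129 genes, and 0 to 1 members for Chd8 (Aqp4). Without the libraries numbered 3, an alternative added after the data were seen, the blocked counts were 28, 15, and 5 genes. The cause of these changes was not tested.

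The sign of the log2 fold changes, none past the threshold, was not stable. With the replicate block Slc1a3 turned to 0.030 for Chd8. With protein-coding transcripts only, Aldh1l1 turned to 0.0088 for Chd8 and Gja1 to -0.0021 for Tsc2. Without the libraries numbered 3 the values turned to 0.24 for Slc1a3 and 0.28 for Aldh1l1 with Chd8 siRNA. With Tsc2 siRNA they turned to 0.20 for Slc1a2, 0.18 for Slc1a3, 0.24 for Aqp4, 0.16 for Aldh1l1, -0.12 for Gja1, and 0.42 for Fgfr3. With the block as well, Aldh1l1 turned to 0.24 for Chd8, and Slc1a2 to 0.065, Slc1a3 to 0.18, Aqp4 to 0.21, Aldh1l1 to 0.18, and Fgfr3 to 0.31 for Tsc2.

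Leaving out each library in turn gave, for Chd8 against control, log2 fold changes of -0.81 to 0.92 for Slc1a2, -1.20 to 1.24 for Slc1a3, -2.61 to 0.55 for Aqp4, -2.28 to 0.64 for Sparcl1, -0.40 to 0.58 for Aldh1l1, -2.06 to 0.38 for Atp1b2, -0.83 to 0.20 for Gja1, and -3.27 to 1.36 for Fgfr3. For Tsc2 against control they were -1.09 to 0.17 for Slc1a2, -1.27 to 1.06 for Slc1a3, -1.79 to 0.40 for Gfap, -2.34 to 1.53 for Aqp4, -0.85 to 0.14 for Aldh1l1, -1.21 to 0.41 for Atp1b2, -0.67 to 0.59 for Gja1, and -2.31 to 1.27 for Fgfr3. With the block, for Chd8 they were -0.29 to 0.41 for Slc1a2, -0.16 to 0.33 for Slc1a3, and -0.17 to 0.38 for Aldh1l1. For Tsc2 they were -1.30 to 0.087 for Slc1a2, -0.33 to 0.15 for Slc1a3, -1.54 to 0.51 for Aqp4, -0.61 to 0.056 for Aldh1l1, -0.23 to 0.44 for Gja1, and -1.38 to 0.12 for Fgfr3. In 199 of the unblocked and 102 of the blocked refits the sign and the call were those reported, in 35 and 23 the sign changed, and in 1 of these blocked refits Aqp4 was called, as it was without all libraries numbered 2.

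The share of the markers against the microglial list was 0.556%, 0.307%, and 0.283% for control, Chd8, and Tsc2 with CPM in place of TPM, and 7.04%, 4.20%, and 3.68% against 6 microglial genes. The count of members higher at number 3 was 7 to 9 when each library was left out and 8 with protein-coding transcripts only, and 9 when numbers 3 and 1 were tested alone, added after the data were seen. The 5 and 2 members lower at all 3 numbers did not change with RLE normalization, while Gfap was no longer lower with Chd8 than with Tsc2 siRNA at all 3 (1 member against 0). At these depths S100b and, at number 1, Fgfr3 rested on few counts.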
